A study of Homo sapiens with 6 samples.

Results

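The genes followed here are 38 genes of endoplasmic reticulum (ER) folding and the unfolded protein response (UPR), out of 39739 gene rows measured by RNA-seq in each library. They were taken from a fixed list of names, drawn up with earlier results of these data known. The list holds ER chaperones and folding enzymes, genes of ER-associated degradation, translocon and vesicle coat genes, and the sensors and transcription factors of the UPR. It leaves out the genes that are listed separately below as *ATF4* and its targets. All 38 names were found in the expression tables. The libraries came from HGC27, an established human gastric cancer cell line, and the comparison asked which genes changed when the 3′-UTR of *FN1*, the fibronectin gene, was stably overexpressed. The 3 HGC27-FN1 3′-UTR libraries were from cells infected with lentivirus and selected with puromycin, and the 3 HGC27-control libraries were from the same line without that overexpression. What vector the control cells carried, and whether each line was a pool or a single clone, is not given in the sources used here. The sample labels number the replicates but do not say that they were separate cultures, so every p-value measures the spread between these libraries only.

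The ER is where secreted and membrane proteins enter the secretory pathway, are folded, receive sugars and disulfide bonds, and are sent to the cytosol for degradation when folding fails. When unfolded proteins build up, the sensors IRE1 (encoded by *ERN1*), PERK (encoded by *EIF2AK3*) and ATF6 set off the UPR. IRE1 splices the *XBP1* mRNA, ATF6 is cut to release a transcription factor, and PERK phosphorylates eIF2α, which slows translation and favours that of ATF4. XBP1 and ATF6 are known activators of chaperone and degradation genes. Expression was given as RPKM, the reads of a gene divided by its exonic length in kilobases and by the library's assigned reads, per 1000000. Gene-level RPKM does not separate spliced from unspliced *XBP1*, and it shows nothing of the cleavage of ATF6 or of the phosphorylation of IRE1 and PERK.

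The 6 libraries held between 16357085 and 37037532 reads assigned to genes, so that 3 reads were worth 0.081 to 0.183 per 1000000 reads, a floor that covers counting error only. *FN1* itself, on chromosome 2 from 215360440 to 215436172, was at 0.777, 0.745 and 0.819 RPKM in HGC27-FN1 3′-UTR libraries and at 0.543, 0.474 and 0.532 RPKM in HGC27-control libraries. Its row was therefore higher in every overexpressing library, with a log2 fold change of 0.52 ± 0.11 (SE, limma, adjusted p = 0.0292). Of 7 epithelial markers, 6 were higher in HGC27-FN1 3′-UTR libraries and *CLDN4* did not pass the test. The summed level of the 7 markers was 18.7 to 27.6 RPKM against 2.99 to 3.35 RPKM in HGC27-control libraries, with none at 0. *VIM*, a mesenchymal marker, was at 304 RPKM in HGC27-FN1 3′-UTR libraries and 303 RPKM in HGC27-control libraries on average, and *PECAM1* was at 0 in every library. The part of the epithelial marker difference in the results for the ER genes was not tested. In such bulk samples a smaller fraction of cells of some type and less RNA per cell cannot be told apart.

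Abundant ER chaperones such as *HSP90B1*, *HSPA5* and *CALR* rose in HGC27-FN1 3′-UTR cells, and *XBP1*, *CRELD2* and *HERPUD1* fell. Of the 38 genes, 37 were tested, and all 37 had at least 0.957 RPKM in every library. *DERL3* was not tested, with 3 reads over the whole HGC27-FN1 3′-UTR group and 9 over the HGC27-control group. At an adjusted p under 0.05, 10 of the 37 genes rose, against 5.62% of the 23299 genes tested, and 3 fell, against 7.36%. The remaining 24 did not pass. Because the ER genes are well expressed, the same calls were also counted among the 14652 tested genes with a mean of at least 1 RPKM, of which 7.02% rose and 10.3% fell. All 3 HGC27-FN1 3′-UTR libraries lay above all 3 HGC27-control libraries for 16 of the 37 genes, against 14.3% of all tested genes, and below them for 9 genes, against 21.7%. The log2 fold changes ran from −0.55 to 0.44, with a median of 0.08, beside a median of −0.04 over all tested genes. The changes were small: none of the 37 genes met the study's criterion for a differentially expressed gene, an absolute log2 fold change above 1 with an unadjusted P under 0.05, which 2.47% of all tested genes met. When the libraries were scaled by median ratios, 14 ER genes rose and 2 fell, beside 7.28% and 5.71% of all tested genes. With voom on the recovered reads, 16 rose and 5 fell, beside 8.77% and 13.2%.

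**Figure D1:**
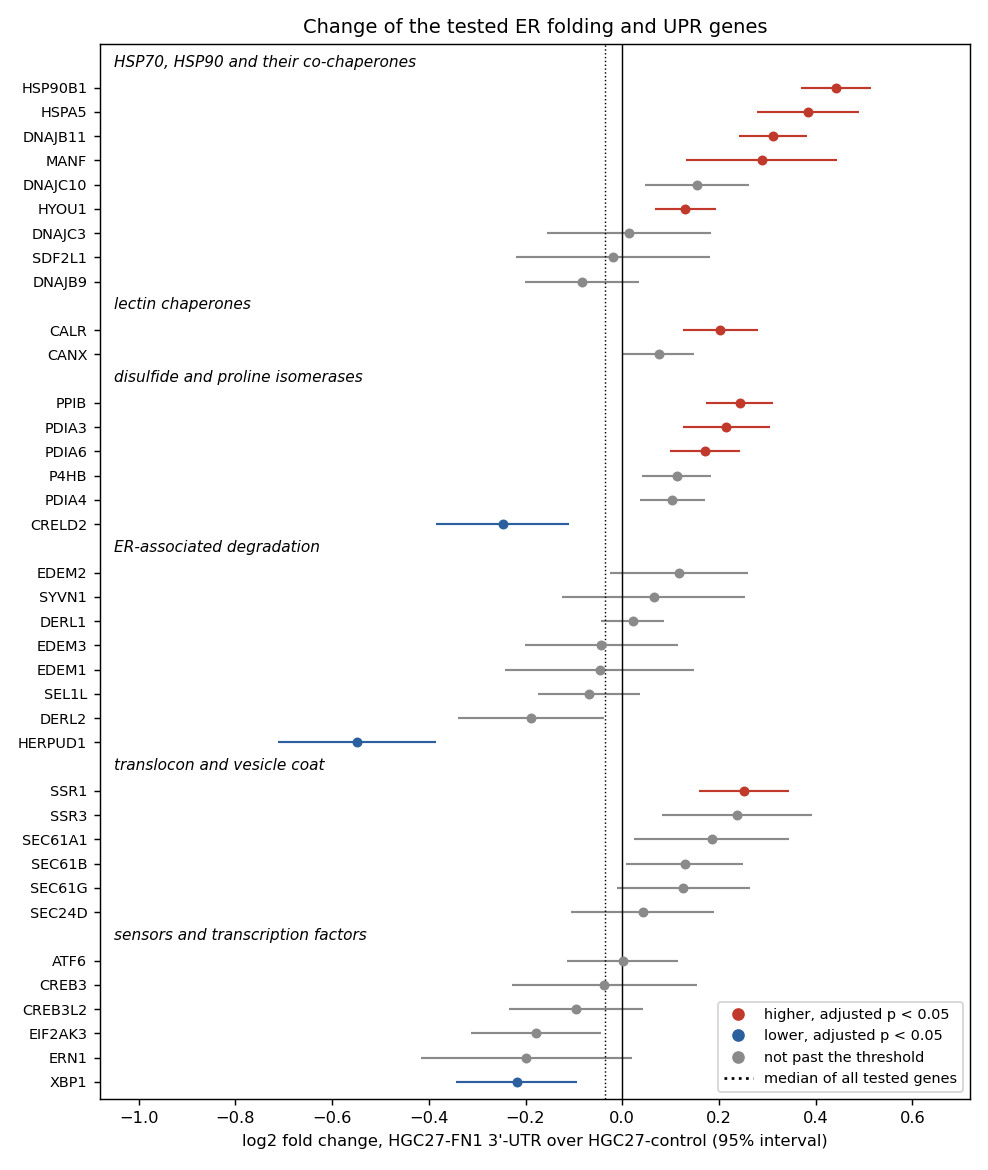
Log2 fold change of the 37 tested ER folding and UPR genes, HGC27-FN1 3′-UTR over HGC27-control, grouped by role, where points are limma estimates, lines are 95% intervals and the dotted line is the median of all tested genes. The 10 genes that rose are chaperones, isomerases and *SSR1*, and the 3 that fell are *CRELD2*, *HERPUD1* and *XBP1*.

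The counts by role are small, and are to be read against the 5.62% of all tested genes that rose and the 7.36% that fell. Among the 9 genes for HSP70, HSP90 and their co-chaperones, 5 rose and 0 fell, with a median log2 fold change of 0.16. The lectin chaperones had 1 gene of 2 that rose and a median of 0.14. Of the 6 disulfide and proline isomerases, 3 rose and 1 fell, with a median of 0.14. The 6 translocon and vesicle coat genes had 1 that rose, *SSR1*, and a median of 0.16. None of the 8 tested genes of ER-associated degradation rose and 1 fell, *HERPUD1*, with a median of −0.05. Likewise none of the 6 sensors and transcription factors rose and 1 fell, *XBP1*, with a median of −0.14. At an unadjusted p under 0.05 from limma, 6 genes of the HSP70 and HSP90 role were higher and 0 lower. The lectin chaperones had 2 higher and 0 lower, and the isomerases 5 and 1. The translocon and coat genes had 4 and 0, the degradation genes 0 and 2, and the sensors and transcription factors 0 and 2. The share of all tested genes at that unadjusted threshold is not given here. Voom at an adjusted p under 0.05 called the same numbers, except 3 higher translocon and coat genes. Of all tested genes it called 8.77% higher and 13.2% lower. With limma at an adjusted p under 0.05, counts of 0 or 1 in roles of 6 to 9 genes are near the shares of 5.62% and 7.36%. Whether the roles differed from each other was not tested.

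Several of these genes carry, just upstream of their start, the sequences through which ATF6 and XBP1 are known to act, and the sequences are shown because genes that rose and genes that fell both hold them. Promoter windows of RefSeq (GRCh38.p14), from 250 bases before to 50 bases after each start site, were found for 34 of the 38 genes and were searched on both strands. *PDIA3*, *DERL1*, *DERL3* and *SEC24D* had no window. The ER stress response element (ERSE) was searched as CCAAT and CCACG separated by 9 bases. It was found in 7 of the 34 genes (20.6%), against 25 of 27305 genes with a window (0.0916%). The genes were chosen by name for ER folding and the UPR. This contrast, and those given below for the other elements, therefore carry no test. The 8 matches are printed 5′ to 3′ on the strand of the element, with 5 flanking bases on each side and the letters of the element in capitals.
HSPA5: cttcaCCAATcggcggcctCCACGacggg
HSP90B1, first: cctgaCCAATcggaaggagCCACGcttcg
HSP90B1, second: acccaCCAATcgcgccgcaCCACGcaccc
CALR: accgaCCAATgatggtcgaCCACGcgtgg
CANX: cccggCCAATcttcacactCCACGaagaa
PDIA6: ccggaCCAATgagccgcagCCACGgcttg
CRELD2: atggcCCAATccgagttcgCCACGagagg
XBP1: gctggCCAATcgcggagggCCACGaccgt
The *HSPA5* element lay at chr9:125241391-125241409, where its most upstream base is at position −66 from the start site. The *HSP90B1* elements lay at chr12:103930216-103930234 and chr12:103930321-103930339, at positions −194 and −89, the second on the strand opposite to the gene. Those of *CALR* (chr19:12938384-12938402, position −225) and *CRELD2* (chr22:49918554-49918572, position −80) were also on the opposite strand. On the strand of the gene were those of *CANX* (chr5:179698778-179698796, position −151), *PDIA6* (chr2:10812853-10812871, position −86) and *XBP1* (chr22:28800603-28800621, position −52). Except for *HSPA5*, the RefSeq start sites behind these matches lie inside the ranges that the expression tables give for the genes, and start sites outside the windows were not searched. Of the 7 genes, *HSPA5*, *HSP90B1*, *CALR* and *PDIA6* rose, *CRELD2* and *XBP1* fell, and *CANX* did not pass the test.

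The second element, ERSE-II, was searched as ATTGG and CCACG separated by 1 base. It was found in 3 of the 34 genes (8.82%), against 19 of 27305 genes (0.0696%).
HYOU1, first: tactcATTGGaCCACGtccca
HYOU1, second: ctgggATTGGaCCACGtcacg
SDF2L1: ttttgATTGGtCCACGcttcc
HERPUD1: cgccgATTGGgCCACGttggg
Both *HYOU1* elements, at chr11:119057274-119057284 and chr11:119057380-119057390, and that of *SDF2L1*, at chr22:21642114-21642124, were on the strand opposite to the gene, and that of *HERPUD1*, at chr16:56932025-56932035, was on its own strand. Of these 3 genes, *HYOU1* rose, *HERPUD1* fell and *SDF2L1* did not pass. The log2 fold change of *HYOU1*, 0.13, lies inside the 95% interval of *SDF2L1*, −0.22 to 0.18. Whether the changes of these genes differed was not tested. The core of the UPR element, TGACGTG, was found in *HYOU1*, *DNAJC10*, *SEC61A1* and *SSR3*, which is 4 of 34 genes (11.8%) against 654 of 27305 (2.40%). In *HYOU1* this core overlapped the second ERSE-II. The wider list of other ER genes, read further below, had a window for 82 genes. The core was found in 12 of these 82 genes (14.6%), so its higher share was not particular to the 34 genes. ERSE was found in 2 of the 82 genes (2.44%) and ERSE-II in 0. A match in these letters is a description of the window and shows nothing of binding.

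The largest rise was that of *HSP90B1*, which encodes GRP94, the HSP90 chaperone of the ER, on chromosome 12 from 103930107 to 103953645. Its level was 386, 396 and 377 RPKM in HGC27-FN1 3′-UTR libraries and 288, 284 and 281 RPKM in HGC27-control libraries. The gap between the groups was far wider than the spread within either, and the mean was 386 ± 9.55 RPKM (SD, n = 3) against 284 ± 3.32 RPKM (SD, n = 3), a ratio of 1.36. The log2 fold change was 0.44 ± 0.030 (SE, limma, adjusted p = 0.00108). *HSPA5*, which encodes BiP, the HSP70 chaperone that also holds the UPR sensors inactive, lies on chromosome 9 from 125234853 to 125241330. It was at 175, 177 and 178 RPKM in HGC27-FN1 3′-UTR libraries and at 133, 129 and 144 RPKM in HGC27-control libraries. The 3 overexpressing libraries were nearly equal and all above the controls, of which the third was the highest. The ratio of the means was 1.30 and the log2 fold change 0.38 ± 0.044 (SE, limma, adjusted p = 0.00512).

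The co-chaperones of BiP, which set its ATP cycle, are given gene by gene, and whether their changes differed was not tested. *DNAJB11*, an HSP40 protein that delivers unfolded chains to BiP, was at 49.8, 50.5 and 48.2 RPKM in HGC27-FN1 3′-UTR libraries and at 39.7, 39.4 and 40.4 RPKM in HGC27-control libraries. The groups were tight and apart, with a log2 fold change of 0.31 ± 0.029 (SE, limma, adjusted p = 0.00272). *MANF*, a secreted and ER-resident factor that binds BiP, was at 33.9, 31.8 and 33.6 RPKM against 25.1, 26.6 and 29.7 RPKM in HGC27-control libraries. Its control values were spread more widely but stayed below all overexpressing ones, and its log2 fold change was 0.29 ± 0.065 (SE, limma, adjusted p = 0.0366). *HYOU1*, the large HSP70-like nucleotide exchange factor of BiP, was at 61.2, 61.5 and 63.2 RPKM against 57.4, 56.2 and 56.3 RPKM in HGC27-control libraries. This was the smallest rise that passed, a log2 fold change of 0.13 ± 0.026 (SE, limma, adjusted p = 0.0265).

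Of the 4 genes of this role that did not pass, *DNAJC10*, a J-protein with disulfide reductase activity, came nearest, with all 3 HGC27-FN1 3′-UTR libraries (5.77, 5.55 and 5.40 RPKM) above the HGC27-control libraries (4.87, 5.01 and 5.10 RPKM). Its log2 fold change was 0.16 (95% interval 0.05 to 0.26, limma, adjusted p = 0.0704). *DNAJB9*, a J-protein known as an XBP1 target and a repressor of IRE1, was at 4.07, 4.23 and 4.25 RPKM against 4.37, 4.30 and 4.64 RPKM in HGC27-control libraries. All of its overexpressing values were below the controls by a small margin, and the log2 fold change was −0.08 (95% interval −0.20 to 0.04, limma, adjusted p = 0.319). *SDF2L1*, a partner of the BiP cycle that is known to respond strongly to ER stress, was at 28.9, 29.9 and 30.4 RPKM against 28.1, 28.2 and 34.5 RPKM in HGC27-control libraries. The third control library stood above the 5 others, and the log2 fold change was −0.02 (95% interval −0.22 to 0.18, limma, adjusted p = 0.912). For *DNAJC3*, which encodes the co-chaperone p58IPK, the groups overlapped at 3.48 to 3.77 RPKM and 3.39 to 3.93 RPKM.

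The lectin chaperones calreticulin and calnexin hold glycoproteins in the ER until they are folded. *CALR*, on chromosome 19 from 12938578 to 12944489, had the highest level of the 38 genes, with 738, 766 and 743 RPKM in HGC27-FN1 3′-UTR libraries and 644, 646 and 663 RPKM in HGC27-control libraries. The groups did not overlap, and the log2 fold change was 0.20 ± 0.032 (SE, limma, adjusted p = 0.0133). *CANX* was at 274, 280 and 273 RPKM against 268, 261 and 255 RPKM in HGC27-control libraries. All 3 overexpressing values were higher here too, but the log2 fold change of 0.08 (95% interval 0.00 to 0.15) did not pass (limma, adjusted p = 0.160). Whether the 2 lectin chaperones differed in their change was not tested.

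Among the isomerases, *PPIB*, which encodes the proline isomerase cyclophilin B, was at 239, 248 and 246 RPKM in HGC27-FN1 3′-UTR libraries and at 204, 204 and 210 RPKM in HGC27-control libraries. Its log2 fold change was 0.24 ± 0.029 (SE, limma, adjusted p = 0.0056). *PDIA3*, the disulfide isomerase that works with calreticulin and calnexin, was at 71.2, 72.4 and 70.9 RPKM against 61.9, 58.8 and 64.2 RPKM in HGC27-control libraries. Both genes were therefore higher in every overexpressing library, and *PDIA3* changed by 0.22 ± 0.037 (log2, SE, limma, adjusted p = 0.0174). *PDIA6*, another disulfide isomerase, was at 110, 112 and 108 RPKM against 96.8, 96.5 and 100.9 RPKM in HGC27-control libraries, a log2 fold change of 0.17 ± 0.030 (SE, limma, adjusted p = 0.0178). *P4HB*, the canonical protein disulfide isomerase, and *PDIA4* did not pass, although both were higher in every HGC27-FN1 3′-UTR library. Their log2 fold changes were 0.11 for *P4HB* (limma, adjusted p = 0.0572) and 0.10 for *PDIA4* (limma, adjusted p = 0.0614).

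*CRELD2*, an ER protein with disulfide isomerase activity that is known to be induced with *MANF* under ER stress, was lower. Its values were 9.65, 10.0 and 10.5 RPKM in HGC27-FN1 3′-UTR libraries and 11.2, 12.1 and 12.6 RPKM in HGC27-control libraries. The groups did not overlap, and the log2 fold change was −0.25 ± 0.057 (SE, limma, adjusted p = 0.0391). *CRELD2* and *MANF* therefore changed in opposite directions.

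**Figure D2:**
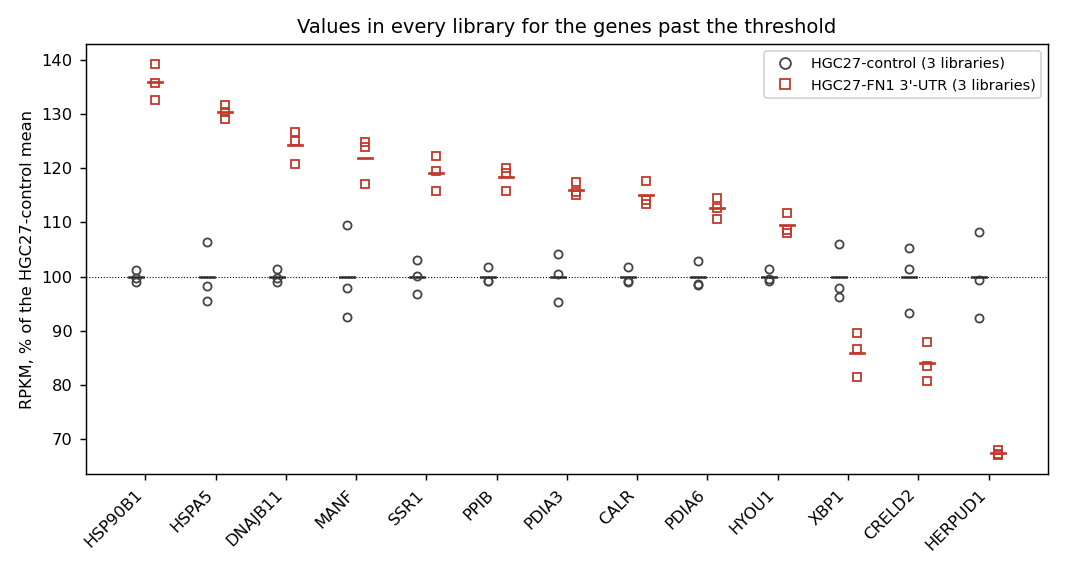
RPKM of the 13 ER folding and UPR genes past the threshold in each library, as a percent of the HGC27-control mean of that gene, with circles for the 3 HGC27-control libraries, squares for the 3 HGC27-FN1 3′-UTR libraries and bars for the group means. No gene has overlapping groups, but the genes were chosen by the test on these same values, so this adds no support. *HERPUD1*, at 2.53 to 2.56 RPKM against 3.48 to 4.07 RPKM, lies farthest below its controls.

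The genes of ER-associated degradation recognise misfolded proteins and pass them to the cytosol for ubiquitination. The largest change of the 38 genes was the fall of *HERPUD1*, on chromosome 16 from 56932048 to 56944863, which encodes HERP, a scaffold of the degradation complex. It was at 2.53, 2.53 and 2.56 RPKM in HGC27-FN1 3′-UTR libraries and at 3.74, 3.48 and 4.07 RPKM in HGC27-control libraries. The 3 overexpressing values were almost identical and all lower, with a ratio of the means of 0.674 and a log2 fold change of −0.55 ± 0.068 (SE, limma, adjusted p = 0.0064). These values rested on 917 reads over the HGC27-FN1 3′-UTR group and 1762 over the HGC27-control group. *SEL1L* and *SYVN1*, the adaptor and the ubiquitin ligase of the same complex, did not pass, with log2 fold changes of −0.07 and 0.07. The mannosidase-like genes *EDEM1*, *EDEM2* and *EDEM3*, whose products mark glycoproteins for degradation, lay between −0.05 and 0.12 with overlapping groups. *DERL1* and *DERL2*, which encode channel components, were at 0.02 and −0.19. *DERL2* was lower in every HGC27-FN1 3′-UTR library, at 2.61 to 2.79 RPKM against 2.96 to 3.28 RPKM, but did not pass (limma, adjusted p = 0.103).

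The translocon genes form the channel and its accessory proteins through which new chains enter the ER. *SSR1*, the alpha subunit of the translocon-associated protein complex, was at 13.5, 13.2 and 12.8 RPKM in HGC27-FN1 3′-UTR libraries and at 10.7, 11.1 and 11.4 RPKM in HGC27-control libraries. The groups were separate, with a log2 fold change of 0.25 ± 0.039 (SE, limma, adjusted p = 0.0122). *SSR3*, the gamma subunit, was also higher in every overexpressing library (10.2 to 11.1 RPKM against 8.55 to 9.87 RPKM), and its log2 fold change of 0.24 was close to that of *SSR1* but did not pass (limma, adjusted p = 0.0609). The channel subunits *SEC61A1*, *SEC61B* and *SEC61G* had log2 fold changes of 0.18, 0.13 and 0.13, and none passed. *SEC24D*, a cargo adaptor of the COPII coat that carries proteins out of the ER, was at 2.39 to 2.47 RPKM against 2.22 to 2.46 RPKM in HGC27-control libraries.

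The sensors and transcription factors of the UPR had 1 call among 6 genes, that of *XBP1*. This gene, on chromosome 22 from 28794555 to 28800597, was at 28.0, 25.5 and 27.1 RPKM in HGC27-FN1 3′-UTR libraries and at 30.1, 30.6 and 33.1 RPKM in HGC27-control libraries. All overexpressing values were lower, with a log2 fold change of −0.22 ± 0.052 (SE, limma, adjusted p = 0.0427). This call was the weakest of the 13, since it was lost whenever any single library was left out. *EIF2AK3*, which encodes PERK, was at 4.29, 4.46 and 4.61 RPKM against 5.27, 4.75 and 5.14 RPKM in HGC27-control libraries. It too was below all controls, with a log2 fold change of −0.18 (95% interval −0.31 to −0.04), but did not pass (limma, adjusted p = 0.0882), although it did with voom on the recovered reads (adjusted p = 0.0418). *ERN1*, which encodes IRE1, had the lowest level of the tested genes, with 0.957, 1.09 and 1.02 RPKM against 1.16, 1.13 and 1.27 RPKM in HGC27-control libraries. Its log2 fold change was −0.20 (95% interval −0.42 to 0.02, limma, adjusted p = 0.205).

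*ATF6* was at 4.70, 5.06 and 4.91 RPKM in HGC27-FN1 3′-UTR libraries and at 4.79, 4.82 and 5.05 RPKM in HGC27-control libraries. The groups covered the same range, with a log2 fold change of 0.00 (95% interval −0.11 to 0.12, limma, adjusted p = 0.991). The ER-anchored transcription factors *CREB3* and *CREB3L2*, which are activated by cleavage in the way ATF6 is, had log2 fold changes of −0.04 and −0.10, and neither passed. The 95% intervals of all 3 genes ended at 0.12 for *ATF6*, 0.15 for *CREB3* and 0.04 for *CREB3L2*. These ends lie below the largest rise, 0.44 for *HSP90B1*. The smallest rise that passed, 0.13 for *HYOU1*, lies inside the interval of *CREB3*.

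**Figure D3:**
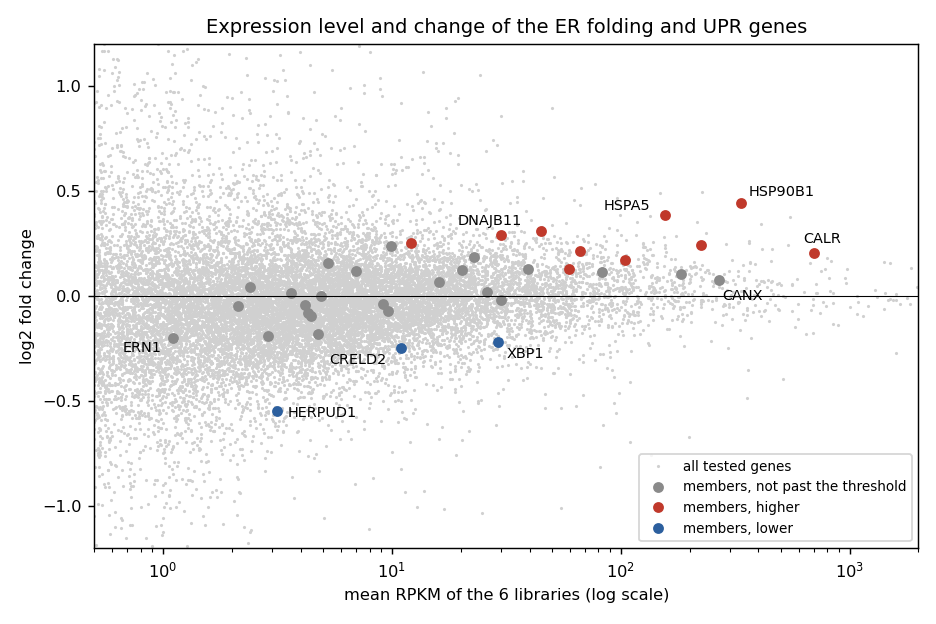
Mean RPKM of the 6 libraries (log scale) against the log2 fold change, HGC27-FN1 3′-UTR over HGC27-control, for all tested genes in light grey and the ER folding and UPR genes in colour. Genes outside the axes are not drawn. The 10 ER genes with a mean of at least 50 RPKM all lie above 0, and the 3 that fell lie below that level.

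The genes were also read by level. Of the 10 ER genes with a mean of at least 50 RPKM, 7 rose and 0 fell, and all 10 had every HGC27-FN1 3′-UTR library above every HGC27-control library. Among all 1038 tested genes at that level, 13.0% rose and 7.03% fell. All HGC27-FN1 3′-UTR libraries lay above all HGC27-control libraries for 297 of these 1038 genes, and below them for 175. Of the 27 tested ER genes under 50 RPKM, 3 rose and 3 fell, beside 6.56% and 10.5% of all tested genes from 1 to 50 RPKM. The split at 50 RPKM was a choice made with the values known, and it carries no test. The median log2 fold change was 0.19 for the 10 genes above the split, beside 0.03 for all tested genes at that level. For the 27 genes below it the median was 0.00, with 14 genes above 0 and 13 below. Single genes departed from these medians. *CANX*, *PDIA4* and *P4HB* above the split had changes of 0.08 to 0.11, and *DNAJB11*, *MANF* and *SSR1* below it had changes of 0.25 to 0.31.

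Together the 38 genes took a larger share of each HGC27-FN1 3′-UTR library than of any HGC27-control library. They held 1.07%, 1.09% and 1.06% of the assigned reads in HGC27-FN1 3′-UTR libraries and 0.931%, 0.925% and 0.947% in HGC27-control libraries. The HSP70, HSP90 and co-chaperone genes made up most of this difference, with 0.352 ± 0.0042% (SD, n = 3) against 0.276 ± 0.0035% (SD, n = 3). The lectin chaperones held 0.375% against 0.340% and the isomerases 0.235% against 0.212%. The translocon and vesicle coat genes held 0.0426% against 0.0372%. The shares of the degradation genes (0.0456% and 0.0463%) and of the sensors and transcription factors (0.0210% and 0.0232%) were far smaller. These sums are dominated by *CALR*, *HSP90B1* and *CANX*, and they are given as a description.

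The libraries differed in how the ER genes varied. The coefficient of variation over 3 libraries had a median of 2.47% in the HGC27-FN1 3′-UTR group, with a highest value of 8.79% for *EDEM1*, and of 5.18% in the HGC27-control group, with a highest value of 12.2% for *SDF2L1*. The third control library had the highest value of its group for 27 of the 37 tested genes. Neither this count nor the coefficient of variation was taken over all tested genes. They therefore cannot be called particular to the ER genes. Of the 13 calls, those of *HSPA5*, *HSP90B1*, *DNAJB11*, *PPIB* and *HERPUD1* held whichever library was left out. Without the second control library 4 genes rose and 1 fell, the calls of *CALR*, *CRELD2*, *HYOU1*, *MANF*, *PDIA3*, *PDIA6*, *SSR1* and *XBP1* being lost, while the shares over all tested genes also fell, to 2.21% higher and 2.07% lower. Without the first HGC27-FN1 3′-UTR library 5 rose and 1 fell, with the same calls lost except that of *CALR*. Leaving out the second HGC27-FN1 3′-UTR library also left 5 that rose and 1 that fell, here with *SSR1* kept and *CALR* lost. Without the third HGC27-FN1 3′-UTR library 7 rose and 1 fell, and *CRELD2*, *HYOU1*, *MANF*, *PDIA3* and *XBP1* were lost. Without the third control library 11 rose and 1 fell, since *CRELD2*, *HYOU1* and *XBP1* were lost and *P4HB* and *SSR3* passed. Without the first control library 9 rose and 2 fell, with *MANF* and *XBP1* lost. With each library left out in turn, 2.21% to 4.08% of all tested genes rose and 2.07% to 4.46% fell.

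Some of the ER genes share exonic bases with other rows of the tables. This was so for 21 of the 38 genes, 20 of them with a gene on the opposite strand and 4 with a gene on the same strand. The largest shares were 27.2% of the exonic bases of *PPIB*, 25.2% of *PDIA6* and 18.9% of *PDIA3*, each with a gene on the opposite strand. The library kit marked the strand, but whether the counting used it is not given in the sources used here, so reads of these stretches cannot be assigned with certainty. Processed copies of 2 chaperone genes were listed at low levels, *PDIA3P1* at 3.53 RPKM against 3.40 RPKM in HGC27-control libraries and *HSP90B2P* at 0.491 RPKM against 0.395 RPKM.

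Other ER genes were read from a wider list of 96 genes, all found in the tables, 2 of them under older names. Of the 95 tested, 10 rose and 4 fell, with a median log2 fold change of 0.07 beside −0.04 over all tested genes. Among all tested genes 5.62% rose and 7.36% fell. The genes that rose by most were *SSR2*, the beta subunit of the complex that holds *SSR1*, with 0.26 ± 0.059 (log2, SE, limma, adjusted p = 0.0376), and *LMAN1*, a cargo receptor for glycoproteins leaving the ER, with 0.24 ± 0.029 (log2, SE, limma, adjusted p = 0.00647). *SERPINH1*, the collagen chaperone HSP47, changed by 0.21 ± 0.052 (log2, SE, limma, adjusted p = 0.0485) and *TMED10*, a receptor of COPI and COPII vesicles, by 0.20 ± 0.036 (log2, SE, limma, adjusted p = 0.0196). Those that fell included *FAM8A1* and *OS9*, which belong to ER-associated degradation, and *ERP29*, a chaperone of the disulfide isomerase family. The list held 16 genes of ER-associated degradation, of which 0 rose and 3 fell. Their median log2 fold change was 0.03, with 9 genes above 0 and 7 below. *FAM8A1*, a partner of HERP in the degradation complex, was at 1.91 RPKM against 2.42 RPKM in HGC27-control libraries, a log2 fold change of −0.32 ± 0.069 (SE, limma, adjusted p = 0.0299). The lectin *OS9* changed by −0.11 (log2). *ERP29* was at 47.0 RPKM against 57.5 RPKM, a log2 fold change of −0.29 ± 0.032 (SE, limma, adjusted p = 0.00447).

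**Figure D4:**
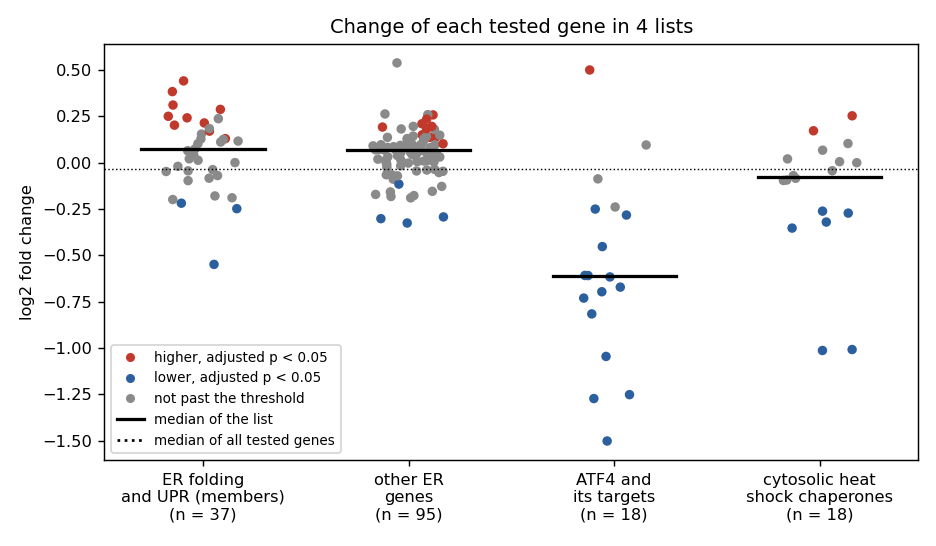
Log2 fold change, HGC27-FN1 3′-UTR over HGC27-control, of each tested gene in 4 lists, with a bar at the median of each list and a dotted line at the median of all tested genes. The ER folding and UPR genes and the other ER genes centre at 0.08 and 0.07, the heat shock chaperones at −0.08, and *ATF4* and its targets at −0.61.

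The PERK branch of the UPR acts through ATF4, which other stress kinases also induce. Of 18 genes in the list of *ATF4* and its targets, 1 rose, 14 fell and 3 did not pass, with a median log2 fold change of −0.61. Over all tested genes, 5.62% rose and 7.36% fell. The change of this list was not tested against that of the ER genes. *DDIT4*, an inhibitor of mTORC1 signalling, was at 13.4 RPKM against 38.04 RPKM in HGC27-control libraries, a log2 fold change of −1.50. *NUPR1*, a stress-induced transcription regulator, and *ASNS*, asparagine synthetase, changed by −1.27 and −1.25. *ATF4* itself and the single gene of the list that rose, *PPP1R15A*, were singled out after their values were seen. *ATF4* was at 153, 152 and 153 RPKM in HGC27-FN1 3′-UTR libraries and at 244, 239 and 246 RPKM in HGC27-control libraries, a log2 fold change of −0.67 ± 0.025 (SE, limma, adjusted p = 0.00019). *PPP1R15A*, which encodes the phosphatase subunit GADD34 that restores translation, was at 26.2 ± 1.61 RPKM (SD, n = 3) against 18.5 ± 0.41 RPKM (SD, n = 3), a log2 fold change of 0.50.

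The cytosolic heat shock chaperones, which fold proteins outside the ER, were read as a neighbouring system. Of 18 genes, 2 rose and 6 fell, beside 5.62% and 7.36% of all tested genes, with a median log2 fold change of −0.08. *HSPA8*, the constitutive HSP70 of the cytosol, was at 318 RPKM against 406 RPKM in HGC27-control libraries, a log2 fold change of −0.35 ± 0.032 (SE, limma, adjusted p = 0.00265). The inducible *HSPA1A* and *HSPA1B* both changed by −1.01, but they are near-identical copies between which reads can be split, so their separate values are uncertain. The 2 that rose, named after their values were seen, were *CHORDC1*, with 0.25, and *HSPA4*, with 0.17.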

How the data were processed

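RNA-seq of 3 HGC27-FN1 3′-UTR and 3 HGC27-control libraries was analysed, with groups from the sample labels. The miRNA sequencing was not analysed here. The authors prepared stranded mRNA libraries and deposited RPKM per gene, 1 table per library. The submitters' processing notes name Trimmomatic 0.36, STAR 2.5.3a, featureCounts from Subread 1.5.1 and GRCh38. The strand setting, the annotation release and the handling of duplicate reads are not given in the sources used here. All 38 genes had the same start and end in GENCODE release 29. Each value was a whole multiple of 1 read (100%, within 0.01 reads), which gave the depth.

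Values were transformed to log2(RPKM + 0.1), which understates changes of low genes. Genes with at least 0.1 RPKM in 3 or more libraries were fitted with limma 3.58.1 (R 4.3.3), group as the only term, with a variance trend, two-sided, with Benjamini-Hochberg adjustment over all 23299 genes. The fit was tested on simulated data. The chi-square per gene between libraries of 1 group was 2.50 to 5.66, above sampling noise. The alternatives were a pseudocount of 1, no filter, a mean of at least 1 RPKM, each library left out, a replicate block, median-ratio scaling and voom on the recovered reads. Genes named with values in each library were all those past the threshold and 11 named genes of the UPR core. Of the wider ER list, the 4 largest changes in each direction were named, and of the other lists the 3 largest. A gene that this rule would name is not reported here. The members and lists were chosen with earlier results of these data known. Tables were made with Python 3.11.15 and pandas 2.3.3.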

Additional observations from a re-analysis of the deposited data

How the results depend on the processing

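The pseudocount of 1, the minimum mean of 1 RPKM and median-ratio scaling kept the numbers of ER genes that rose (10, 13 and 14) and fell (3, 3 and 2) within 1.5 times of 10 and 3. Of all tested genes, 5.64%, 8.27% and 7.28% rose in these settings and 7.46%, 12.7% and 5.71% fell. Without a filter 9 ER genes rose and 1 fell, beside 2.92% and 3.55% of all tested genes. With voom on the recovered reads 16 rose and 5 fell, beside 8.77% and 13.2%. With each library left out in turn, 4 to 11 rose and 1 to 2 fell, beside 2.21% to 4.08% and 2.07% to 4.46% of all tested genes. Of the 13 called genes, none changed direction in any of the 12 alternatives. *HSPA5*, *HSP90B1*, *DNAJB11*, *PPIB* and *HERPUD1* were called in all 12, *CALR* and *SSR1* in 9, *PDIA6* in 8, *PDIA3* in 7, *HYOU1* and *CRELD2* in 6, *MANF* in 5 and *XBP1* in 3. The cause of these losses was not tested.

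Of the 24 genes not called, 7 changed sign, all with values near 0. With each library left out in turn, the log2 fold changes ran from −0.0341 to 0.0711 for *DNAJC3*, from −0.0697 to 0.0794 for *SDF2L1*, from −0.0096 to 0.1479 for *SYVN1*, from −0.0958 to 0.0224 for *EDEM1*, from −0.0842 to 0.0002 for *EDEM3*, from −0.0232 to 0.0284 for *ATF6* and from −0.1233 to 0.0285 for *CREB3*. Median-ratio scaling gave 0.0157 for *SDF2L1*. With voom, *CANX*, *P4HB*, *PDIA4*, *DNAJC10*, *SSR3* and *SEC61A1* also rose and *DERL2* and *EIF2AK3* also fell.

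Same-numbered replicates did not deviate together (correlations of 0.0024, 0.0211 and 0.0103 over all tested genes), so the numbers were not taken to pair the libraries. With the replicate block 4 ER genes rose (*HSP90B1*, *HSPA5*, *DNAJB11* and *PPIB*) and 2 fell (*HERPUD1* and *CRELD2*), beside 2.42% and 2.57% of all tested genes. *DERL3*, at 0 to 0.036 RPKM, was under the minimum level and was tested only without the filter.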
